A study of Mus musculus with 30 samples.

Results

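Tubulins are the building blocks of microtubules, and microtubule-associated proteins (MAPs) bind, stabilise and space them. The genes described here were the beta-tubulins Tubb3, Tubb2a, Tubb2b and Tubb4a, the alpha-tubulin Tuba4a, and the MAPs Map1a, Map1b, Map2 and Mapt, which encodes tau. They were chosen by name, and every probe set (a group of array probes designed against 1 transcript) whose annotation gave 1 of these genes was taken. Of the 9 genes, 7 had a probe set, with 12 probe sets in all among 12422 tested, and no probe set was named for Map1a or Tubb2b. Tubb3, Tubb2a, Tuba4a and Mapt had several probe sets each.

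The samples were laser captures of 3 pools of motoneurons from the spinal cords of 5 adult mice, all of them sham-operated controls. The IML pool held motoneurons of the intermediolateral column, where the autonomic preganglionic neurons lie, and the LMN and MMN pools held lateral and medial motoneurons, which are somatic and drive skeletal muscle. Each animal gave all 3 pools, with 400 captures per pool, and the extracted RNA was divided to make 2 amplified targets, each put on its own array. The data were thus 30 arrays of 15 samples, with 5 animals per pool, and the comparisons asked whether autonomic and somatic motoneurons, or both somatic pools, differ. The labels give neither the strain nor the operation.

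Microtubules carry the transport between a motoneuron's cell body and its distant terminals. Tubb3 is the beta-tubulin found mainly in neurons, while Tubb2a and Tubb4a are abundant in nervous tissue and Tubb4a is also made by oligodendrocytes. Tau is sorted to the axon, MAP2 to dendrites and the cell body, and the protein of Map1b is best known from growing axons.

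The promoters of the tubulin genes whose values are followed most closely below are shown as the 100 bases before the annotated start, 5′ to 3′ on the gene's strand. The sequences are from RefSeq on GRCm38.p6. Capitals mark TATAA, the core of a TATA box, where it lay 45 to 20 bases before the start.
Tubb3 (chr8:123411453-123411552, plus strand): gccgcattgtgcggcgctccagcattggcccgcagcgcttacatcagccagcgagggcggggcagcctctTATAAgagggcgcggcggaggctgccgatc
Tubb2a (chr13:34078009-34078108, minus strand): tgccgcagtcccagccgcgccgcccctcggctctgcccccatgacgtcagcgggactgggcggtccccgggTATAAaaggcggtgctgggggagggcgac
Tubb4a (chr17:57087601-57087700, minus strand): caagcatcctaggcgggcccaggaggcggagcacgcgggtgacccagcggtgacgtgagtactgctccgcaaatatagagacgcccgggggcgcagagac
Tuba4a (chr1:75219295-75219394, minus strand): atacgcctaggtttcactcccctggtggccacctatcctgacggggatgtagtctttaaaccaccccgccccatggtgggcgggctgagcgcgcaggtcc
Tubb3 held TATAA 30 bases and Tubb2a 29 bases before the start, and of 7 members in the promoter table these 2 held it in that window. In Tubb3 the reverse strand matches too, overlapping the same letters. Over all 32851 promoters in the table, 3.7% held TATAA in the window on the gene's strand, and 22.8% held it on either strand anywhere in the 250 bases before the start. Among the members, Map1b held it on its own strand outside the window, so the count of 2 stands beside the first share only. The motif was chosen after the sequences were read, and a match describes letters, not a working site.

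All values below are log2 of the deposited array intensity, averaged over the 2 arrays of a sample. Differences are log2 differences with the standard error of a limma model that holds the animal constant, and adjusted p-values cover all 12422 probe sets. A probe set was called at an adjusted p under 0.05. Brightness cannot be compared between probe sets, and no calls of detection were used, so a dim probe set may not measure its transcript.

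The labelled cell types were set against marker genes first. Of 14 motoneuron markers, 8 had a named probe set, among them the neurofilament genes Nefh, Nefm and Nefl, the vesicular acetylcholine transporter Slc18a3 and peripherin (Prph), and no probe set was named for Chat, which makes acetylcholine. The summed level of the 8, as log2, ran from 12.34 to 13.03 in IML, from 13.31 to 14.18 in LMN and from 13.07 to 13.61 in MMN. Against both somatic pools 3 were called lower in IML (Nefh, Nefl and Ret), and against LMN 6 were. Isl1, a transcription factor of motoneurons, averaged 5.64 over all samples, below the median probe set at 7.10, and differed by 0.14 between IML and somatic pools (adjusted p = 0.404). All 13 markers of meninges and fibroblasts were positive in IML less the somatic mean, and 9 were called, with a median difference of 1.10. Their summed level ran from 14.50 to 14.97 in IML, from 13.08 to 14.43 in LMN and from 13.43 to 15.14 in MMN. Of 13 markers of microglia and macrophages, 7 were called higher in IML. None of these markers was listed at 0, but neither was any probe set, as the lowest deposited intensity was 6.46. This cannot show that a cell type was present. The LMN sample of animal 2 had the lowest motoneuron mean (8.47) and the highest fibroblast mean (9.72) of the LMN samples. It also had the highest mean of the pan-neuronal markers among them (9.80). The fibroblast mean of animal 2 was also high in the other pools. It was the highest in MMN (10.62), and in IML it was 10.42, where the highest was 10.44. In bulk captures such as these, fewer cells of a type and less RNA per cell cannot be told apart.

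**Figure D1:**
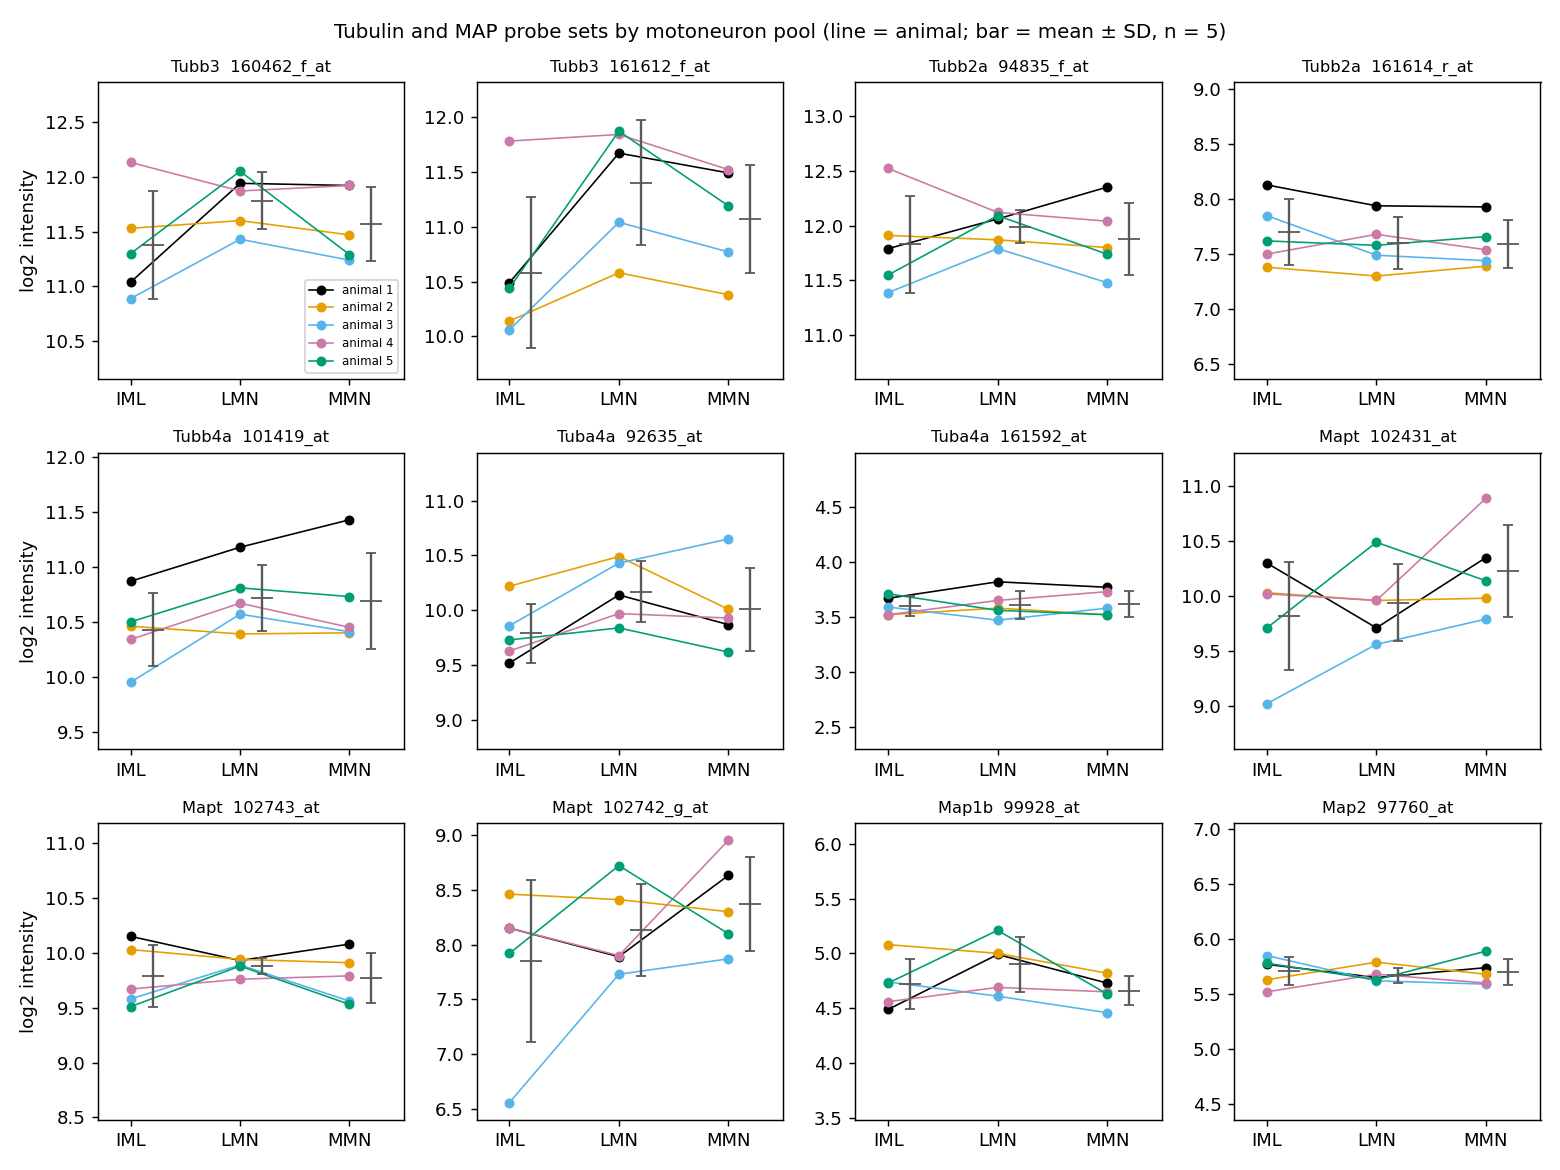
Log2 intensity (vertical axis) of the 12 probe sets in the IML, LMN and MMN pools, with 1 line per animal and the mean ± SD of 5 animals as a bar. Every panel spans the same range of log2 units. Tubb3 161612_f_at lay lowest in IML in 4 of 5 animals, and the dim probe sets of Tuba4a (161592_at) and Map2 were nearly flat.

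Tubb3 161612_f_at was lower in IML than in the somatic pools, by 1.57-fold against their mean and by 1.76-fold against LMN. It was the 1 of 12 tubulin and MAP probe sets that passed the test in either contrast. Tubb3's other probe set, and the brightest ones of Tubb4a and Tuba4a, had negative differences that missed the threshold. No member passed the test between IML and MMN or between LMN and MMN.

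For Tubb3 161612_f_at the IML values of animals 1 to 5 were 10.49, 10.14, 10.06, 11.78 and 10.44. The same animals had 11.67, 10.58, 11.04, 11.84 and 11.87 in LMN, and 11.49, 10.38, 10.77, 11.52 and 11.19 in MMN. The pools overlapped: the IML sample of animal 4 stood above most somatic samples, and the other 4 IML samples lay below every somatic sample other than that of animal 2 in MMN. Animal 2 had the lowest value of both somatic pools. The means were 10.58 ± 0.69 in IML, 11.40 ± 0.57 in LMN and 11.07 ± 0.49 in MMN (SD, n = 5 each).

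Against both somatic pools Tubb3 161612_f_at differed by -0.66 ± 0.15 (adjusted p = 0.0311), and it was lower in 4 of 5 animals, with 0.10 in animal 4. Among all probe sets 5.52% were called in that contrast and 2.09% were called lower. Against LMN the difference was -0.82 ± 0.17 (adjusted p = 0.0166), lower in 5 of 5 animals, where 8.98% of all probe sets were called and 3.53% were called lower. A count of 1 in 12 beside such shares is not read as a result about the group. Against MMN the difference was -0.49 ± 0.17 (adjusted p = 0.288), lower in 4 of 5 animals, and LMN less MMN gave 0.33 ± 0.17 (adjusted p = 0.502), higher in 5 of 5. The 2 arrays of a sample differed by a median of 0.10 and at most 0.43 for this probe set.

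The call was lost without some of the animals. Without animal 1, 3 or 5 the adjusted p was 0.11, 0.146 and 0.122 against both somatic pools, and 0.0555, 0.0785 and 0.0877 against LMN. Without animal 4 the differences were -0.84 (adjusted p = 0.014) and -1.01 (adjusted p = 0.00801). Without the LMN sample of animal 2 they were -0.69 (adjusted p = 0.043) and -0.88 (adjusted p = 0.0274). With the first technical set of arrays alone they were -0.55 (adjusted p = 0.135) and -0.74 (adjusted p = 0.0601), and a fit of IML and LMN alone gave an adjusted p of 0.0573.

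Tubb3 160462_f_at, the brighter probe set of the gene, was not called. Its IML values were 11.04, 11.53, 10.89, 12.13 and 11.30 in animals 1 to 5. The LMN values were 11.94, 11.60, 11.43, 11.87 and 12.05, and the MMN values 11.92, 11.47, 11.24, 11.92 and 11.29. The groups overlapped widely, and the IML sample of animal 4 was the highest of all 15 samples. The difference was -0.30 ± 0.14 (adjusted p = 0.265) against both somatic pools, -0.40 ± 0.16 (adjusted p = 0.163) against LMN and -0.19 ± 0.16 (adjusted p = 0.703) against MMN. Without animal 1 the value against both somatic pools was -0.15 (adjusted p = 0.617) and without animal 4 it was -0.43 (adjusted p = 0.128). With all animals it was negative in 4 of 5 animals in the first and second of these contrasts and in 2 of 5 against MMN. Over the 15 samples of 5 animals, the Pearson correlation of both Tubb3 probe sets was 0.83. Averaged into 1 value for the gene, they gave -0.48 ± 0.14 (adjusted p = 0.0697) against both somatic pools and -0.61 ± 0.16 (adjusted p = 0.0381) against LMN.

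**Figure D2:**
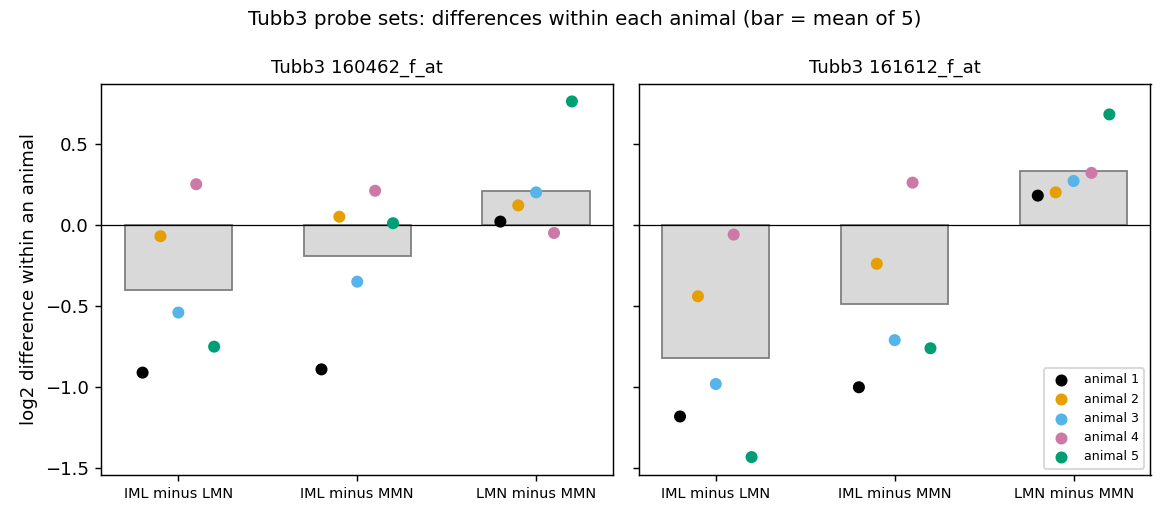
Log2 differences between pools within each animal (vertical axis) for both Tubb3 probe sets, with 1 point per animal and the mean of 5 animals as a bar. For 161612_f_at all 5 points of IML minus LMN lie below 0, from -1.43 to -0.06, and for 160462_f_at animal 4 stands at 0.25.

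Between the pools the motoneuron markers moved in the same direction as Tubb3, and the fibroblast markers in the opposite direction. The mean of the 8 motoneuron markers was 8.38 ± 0.17 in IML, 9.02 ± 0.43 in LMN and 8.79 ± 0.27 in MMN, and that of the 13 fibroblast markers was 10.09 ± 0.40, 8.83 ± 0.58 and 9.50 ± 0.69 in the same pools (SD, n = 5 each). Nefh, the heavy neurofilament subunit, differed by -0.83 ± 0.09 between IML and the somatic mean (adjusted p = 0.00105). The IML sample of animal 4, highest in Tubb3, also had the highest motoneuron mean (8.59) and the lowest microglial mean (7.16) of the IML samples. The motoneuron mean of animal 5 was close to it, at 8.51, with Tubb3 161612_f_at at 10.44. The pan-neuronal mean was 9.63 in animal 4 and highest in animal 2, at 9.72. The fibroblast mean of animal 4 was 9.70, and the lowest of the IML samples was 9.60 in animal 1, where Tubb3 161612_f_at was 10.49. The part of these markers in the Tubb3 result was not tested.

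Tubb2a, a beta-tubulin of nervous tissue, was not called in any contrast. Its probe set 94835_f_at read 11.79, 11.91, 11.39, 12.52 and 11.55 in IML. In LMN the values were 12.06, 11.87, 11.79, 12.12 and 12.09, and in MMN 12.35, 11.80, 11.48, 12.04 and 11.74. The pools overlapped and the IML sample of animal 4 was again the highest of all. IML less the somatic mean was -0.10 ± 0.12 (adjusted p = 0.7), with a 95% interval from -0.36 to 0.15, and IML less LMN was -0.15 ± 0.13 (adjusted p = 0.539). Without animal 4 these became -0.24 (adjusted p = 0.243) and -0.29 (adjusted p = 0.196). The second probe set, 161614_r_at, averaged 7.70 ± 0.30 in IML, 7.60 ± 0.24 in LMN and 7.59 ± 0.22 in MMN (SD, n = 5 each), a difference of 0.10 ± 0.07 (adjusted p = 0.443) between IML and the somatic mean.

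The probe sets 94835_f_at of Tubb2a and 160462_f_at of Tubb3 had a correlation of 0.89 over the 15 samples, while 94835_f_at and 161614_r_at, both named for Tubb2a, had one of 0.05. These correlations are descriptions over samples that share animals and arrays. Of the 12 probe sets, 5 carry a suffix (_f, _g or _r) that marks probes able to bind related transcripts or chosen by relaxed rules, among them all 4 probe sets of Tubb3 and Tubb2a. Signal of Tubb3 and Tubb2a can therefore not be fully told apart on this array, nor from that of Tubb2b, for which no probe set was named.

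Tubb4a, measured by the unsuffixed probe set 101419_at, had a negative difference in IML that missed the threshold. Its IML values were 10.87, 10.46, 9.95, 10.34 and 10.50 in animals 1 to 5, against 11.18, 10.39, 10.57, 10.67 and 10.81 in LMN. MMN had 11.43, 10.40, 10.41, 10.45 and 10.73. The groups overlapped, and animal 1 was the highest in each pool. Within animals, IML lay below both somatic pools in 4 of 5, and animal 2 was nearly level. The difference was -0.28 ± 0.08 (adjusted p = 0.072) against both somatic pools and -0.30 ± 0.09 (adjusted p = 0.0744) against LMN. Without animal 2 these became -0.37 (adjusted p = 0.0327) and -0.39 (adjusted p = 0.0348), and both were called. Against MMN the value was -0.26 ± 0.09 (adjusted p = 0.296), and LMN less MMN gave 0.04 ± 0.09 (adjusted p = 0.911). Oligodendrocytes express Tubb4a too. Of 10 oligodendrocyte and myelin markers none was called by limma between IML and both somatic pools, with a median difference of 0.13. The summed level of these markers ran from 13.69 to 14.52 in IML, from 13.48 to 14.43 in LMN and from 13.85 to 14.33 in MMN. Their part in the Tubb4a values was not tested.

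Tuba4a, an alpha-tubulin in which rare human variants are linked to motoneuron disease, was read by 92635_at at 9.52, 10.22, 9.86, 9.63 and 9.73 in IML. LMN had 10.14, 10.49, 10.43, 9.97 and 9.84, and MMN had 9.87, 10.01, 10.65, 9.93 and 9.62. IML lay below LMN in 5 of 5 animals and below MMN in 3 of 5, and the pools overlapped. The difference was -0.38 ± 0.12 against LMN (adjusted p = 0.0736), -0.30 ± 0.10 against both somatic pools (adjusted p = 0.119) and -0.22 ± 0.12 against MMN (adjusted p = 0.5). With IML and LMN alone in the fit the adjusted p against LMN was 0.049. The other probe set of the gene, 161592_at, averaged 3.61 over all samples, brighter than 2.66% of probe sets, and its difference of -0.02 ± 0.05 cannot speak for the gene.

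**Figure D3:**
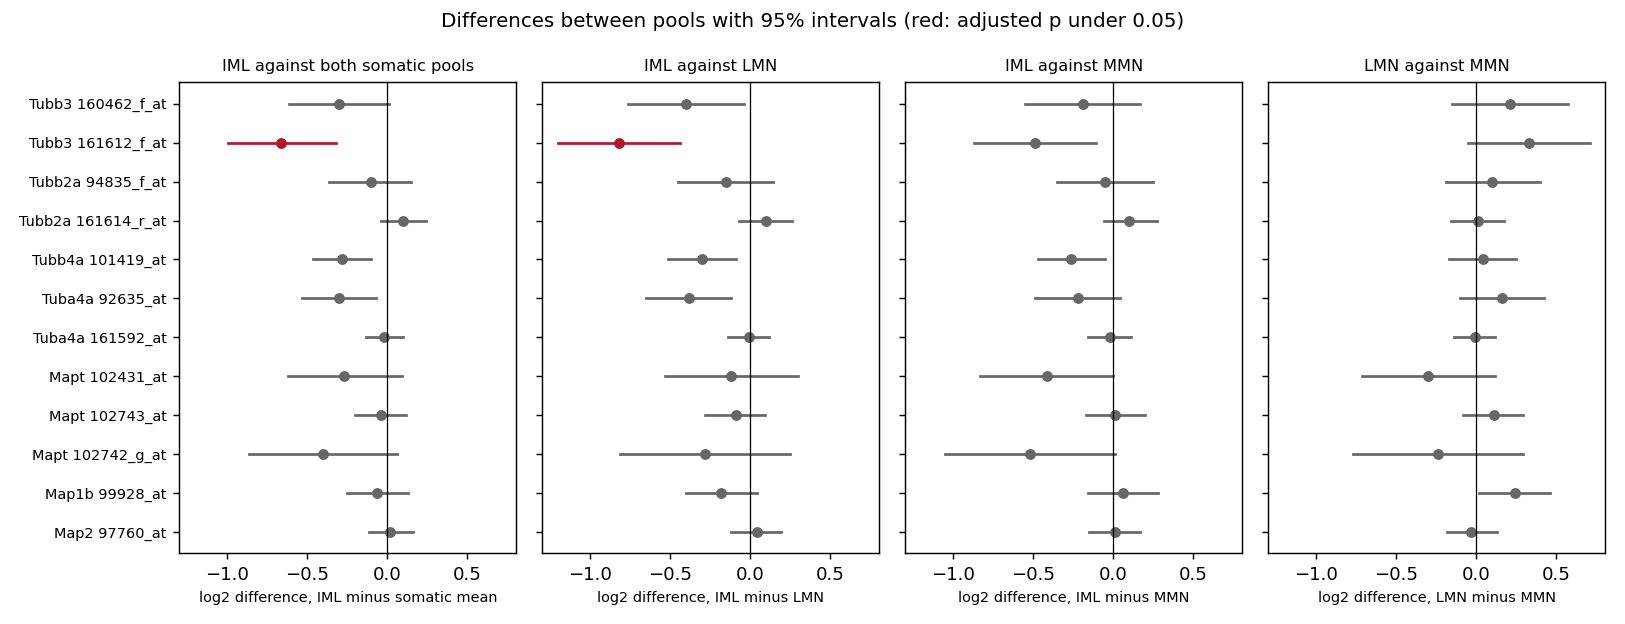
Log2 differences (horizontal axes) of the 12 probe sets in 4 contrasts, with points for the estimate and lines for its 95% interval. Red marks an adjusted p under 0.05, reached by Tubb3 161612_f_at against both somatic pools (-0.66) and against LMN (-0.82).

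Mapt had 3 probe sets, none of which was called in any contrast. Mapt 102431_at read 10.30, 10.03, 9.02, 10.02 and 9.71 in IML, against 9.71, 9.96, 9.56, 9.96 and 10.49 in LMN. MMN had 10.35, 9.98, 9.79, 10.89 and 10.14. The pools overlapped throughout, with the IML sample of animal 3 the lowest and the MMN sample of animal 4 the highest of the 15. IML differed by -0.27 ± 0.16 from the somatic mean (adjusted p = 0.412), by -0.12 ± 0.19 from LMN (adjusted p = 0.765) and by -0.41 ± 0.19 from MMN (adjusted p = 0.407).

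The other probe sets of Mapt were not called either. Mapt 102742_g_at averaged 7.85 ± 0.74 in IML, 8.13 ± 0.42 in LMN and 8.37 ± 0.43 in MMN, and differed by -0.40 ± 0.21 between IML and the somatic mean (adjusted p = 0.318). The IML sample of animal 3 was low for this probe set, at 6.56, and without that animal the difference was -0.19, beside -0.17 for 102431_at. Mapt 102743_at averaged 9.79 ± 0.28 in IML, 9.88 ± 0.07 in LMN and 9.77 ± 0.23 in MMN (SD, n = 5 each), and differed by -0.04 ± 0.07 (adjusted p = 0.838), with a 95% interval from -0.20 to 0.12. Over the 15 samples, 102431_at had a correlation of 0.92 with 102742_g_at and of 0.37 with 102743_at. The sources used here do not say which parts of the tau transcript each probe set reads.

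Map1b and Map2, the MAPs of growing axons and of dendrites, were dim on this array. Map1b 99928_at averaged 4.76 over all samples, brighter than 12.8% of probe sets, and Map2 97760_at averaged 5.69, brighter than 24.2%. Map1b read 4.99, 5.00, 4.61, 4.69 and 5.21 in LMN, against 4.73, 4.82, 4.46, 4.65 and 4.63 in MMN. LMN was higher in 5 of 5 animals by 0.24 ± 0.10, with an unadjusted p of 0.0342 and an adjusted p of 0.381, and the groups overlapped. In IML the Map1b values ran from 4.49 to 5.08, a difference of -0.06 ± 0.09 from the somatic mean (adjusted p = 0.781). Map2 stayed between 5.52 and 5.89 in all samples and differed by 0.02 ± 0.06 (adjusted p = 0.891). At this brightness a lack of difference does not show equal transcript levels.

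Counted by gene, with each of the 7 members at its brightest probe set, limma called 0 in every contrast. At an unadjusted p under 0.05 there were 2 members against both somatic pools, 3 against LMN, 1 against MMN and 1 between LMN and MMN. Of all 8251 genes, 1913, 2121, 1146 and 977 had an unadjusted p under 0.05 in the same contrasts. The share of all genes called at an adjusted p under 0.05 was 6.29%, 10.1%, 0.436% and 0.0364%. IML was lower than the somatic mean in 6 of 7 members and lower than LMN in 6 of 7, with a median difference of -0.27 and -0.18, beside -0.0090 and -0.0209 over all genes. Of all 8251 genes, 4448 were negative against the somatic mean and 4703 against LMN. These contrasts share the IML and LMN samples. Against MMN 5 of 7 members were negative (median -0.19), beside 4034 of all 8251 genes (median 0.0025). LMN less MMN had a median of 0.10 (all genes 0.0143). By probe set the calls were 1, 1, 0 and 0 of 12 in the 4 contrasts (unadjusted 3, 4, 2 and 1). Of all 12422 probe sets, 2574, 2923, 1533 and 1447 had an unadjusted p under 0.05. In the contrasts with 0 calls 0.346% and 0.0564% of all probe sets were called.

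The spread of the members was also divided between animals and pools, as a description. Of the sum of squares over the 15 samples, the animal took from 28.9% (Map2) to 81.1% (Tubb2a 161614_r_at). The pool took from 0.749% (Tuba4a 161592_at) to 29% (Tubb3 161612_f_at). For Tubb4a the animal took 74.1% and the pool 14.4%. The animal holds 28.6% and the pool 14.3% of the degrees of freedom, and the share of the animal for Map2 was close to that value. The share of the pool for Tubb4a was close as well, but there the animal took most of the total and 11.4% was left for the rest. The limma differences hold the animal constant, so a pool's share of the total does not judge them.

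Other tubulins showed no called difference in any contrast. Of 15 listed, 8 were measured, and their median difference between IML and the somatic mean was -0.06, negative in 6 of 8. Tuba1a is the main alpha-tubulin of neurons. Its brighter probe set averaged 13.98 ± 0.10 in IML, 13.99 ± 0.20 in LMN and 13.92 ± 0.07 in MMN (SD, n = 5 each). The difference of IML from the somatic mean was 0.02 ± 0.05 (adjusted p = 0.873). The dimmer probe set of Tuba1a differed by -0.12 ± 0.08 from the somatic mean (adjusted p = 0.467), lower in 4 of 5 animals. Against LMN it differed by -0.20 ± 0.10 (adjusted p = 0.246), and against MMN by -0.05 ± 0.10 (adjusted p = 0.899). Tuba1c differed by -0.10 ± 0.10, Tuba8 by -0.06 ± 0.08 and Tubb6 by -0.06 ± 0.10. By the brighter of its probe sets, Tubb5, the beta-tubulin common to most cells, differed by 0.01 ± 0.17. The difference between Tubb3 and these tubulins was not tested.

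Among other microtubule-associated and end-binding proteins, 25 of 36 listed genes were measured, and 2 were called higher and 1 lower in IML than in the somatic pools. Dcx encodes doublecortin, a MAP of migrating and immature neurons, and was higher in 5 of 5 animals by 0.35 ± 0.07 (adjusted p = 0.0185). Its mean was 6.86 ± 0.09 in IML, 6.51 ± 0.24 in LMN and 6.52 ± 0.24 in MMN (SD, n = 5 each), all below the median probe set. Mapre1, which encodes the plus-end binding protein EB1, was higher by 0.25 ± 0.07 (adjusted p = 0.0483) in 5 of 5 animals, and Map7d1, a relative of the MAP ensconsin, was lower in 5 of 5, at -0.28 ± 0.07 (adjusted p = 0.0484). Against LMN, a contrast with the same IML samples, Dcx (0.35), Mapre1 (0.32) and Map7d1 (-0.32) were called as well. Mapre3, which encodes the neuronal end-binding protein EB3, was lower than in LMN in 4 of 5 animals, at -0.48 ± 0.11 (adjusted p = 0.0244). Over all genes 4% were called higher and 2.29% lower against both somatic pools, and 6.3% and 3.84% against LMN. Leaving out 1 animal ended most of these calls: against both somatic pools Dcx and Mapre1 were called only without animal 2 (adjusted p from 0.0111 to 0.092 and from 0.0463 to 0.162), and Map7d1 in none of the 5 fits (adjusted p from 0.062 to 0.179). Against LMN, Dcx and Mapre1 were again called only without animal 2 (up to 0.097 and 0.0908), Mapre3 only without animal 4 (up to 0.108) and Map7d1 in none (up to 0.144). The median difference of the list from the somatic mean was -0.07, with 16 of 25 negative.

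None of 23 measured folding, modifying and severing factors was called by limma in any contrast, and the median against the somatic mean was -0.02. Tbcb, a tubulin folding cofactor, differed by -0.14 ± 0.06 between IML and the somatic mean (adjusted p = 0.205). Ttl, which adds tyrosine back to alpha-tubulin, differed by -0.11 ± 0.04 (adjusted p = 0.127), negative in 5 of 5 animals. Vbp1, a prefoldin subunit, differed by 0.26 ± 0.16 (adjusted p = 0.417) and Cct6a, a subunit of the tubulin chaperonin, by 0.01 ± 0.08 (adjusted p = 0.98).

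Of 24 measured kinases and phosphatases of tau and MAPs, 1 was called lower in IML than in the somatic pools and 3 were called lower than in LMN. Ppp2ca, a catalytic subunit of the tau phosphatase PP2A, was lower in 5 of 5 animals, with -0.25 ± 0.06 (adjusted p = 0.0253) against both somatic pools and -0.38 ± 0.06 (adjusted p = 0.00601) against LMN. Mapk9, which encodes the stress kinase JNK2, was lower than in LMN (-0.35 ± 0.08, adjusted p = 0.0253), and so was Mark4, a kinase of tau and MAPs (-0.21 ± 0.06, adjusted p = 0.049). Against LMN Ppp2ca was called in all 5 fits that left out 1 animal (adjusted p from 0.0131 to 0.0456), Mapk9 in the fits without animal 2 or 3 (up to 0.119) and Mark4 in none (up to 0.164). Against both somatic pools Ppp2ca was called without animal 1 or 2 only (up to 0.117). Ppp2r1a, the scaffold subunit of PP2A, differed by -0.36 ± 0.10 from LMN and was not called (adjusted p = 0.0576). Over all genes 2.29% were called lower against both somatic pools and 3.84% against LMN. The list's median was -0.12 against the somatic mean, and none of its genes was called between IML and MMN or between LMN and MMN.

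**Figure D4:**
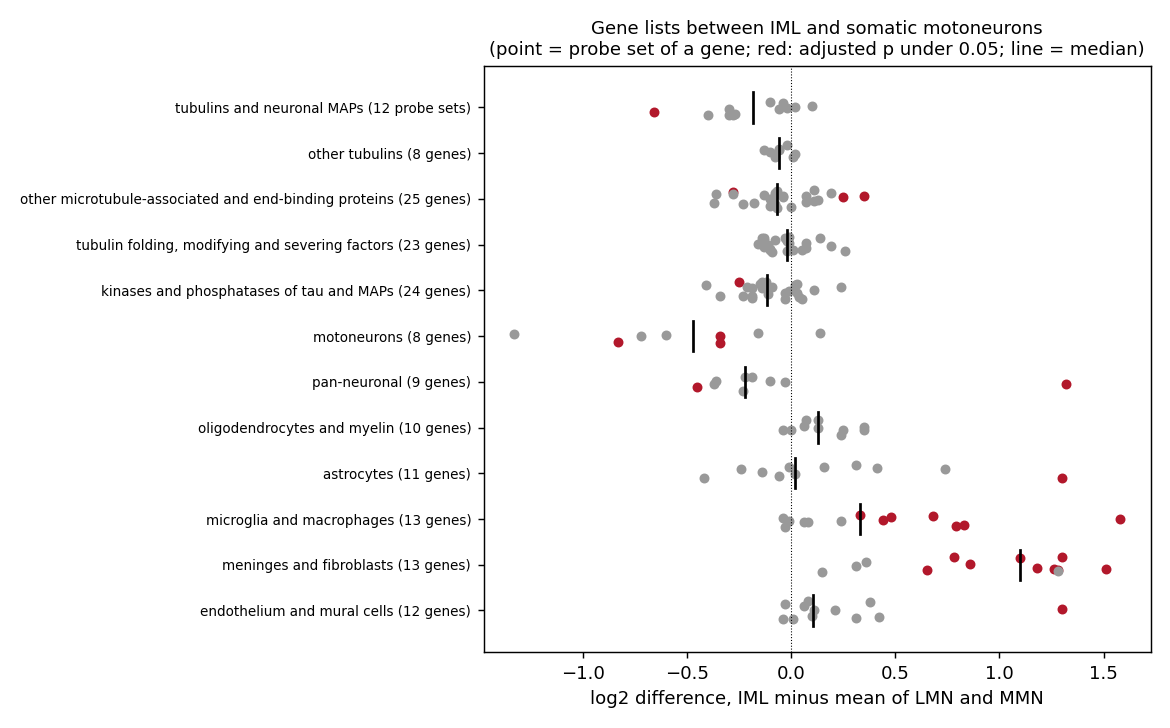
Log2 difference of IML minus the mean of LMN and MMN (horizontal axis) for the 12 tubulin and MAP probe sets, for the genes of 4 lists of related proteins and for 7 lists of cell type markers, each gene as a point, with the list's median as a line and calls at an adjusted p under 0.05 in red. The meningeal and fibroblast markers lie furthest to the right, with a median of 1.10, and the motoneuron markers to the left at -0.47, beside -0.18 for the 12 probe sets.

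The remaining marker lists moved less. Of 9 pan-neuronal genes 1 was called higher in IML than in the somatic pools (Gap43, 1.32 ± 0.23) and 1 lower (Elavl4, -0.45 ± 0.11). The differences of 8 of the 9 were negative, with a median of -0.22. Against LMN 8 of 9 were negative too, with a median of -0.34. Of 11 astrocyte markers 1 was called higher (Fabp7, median of the list 0.02), and of 12 endothelial and mural markers 1 was called higher (Vwf, median 0.11). The microglial list had a median of 0.33 and summed levels from 11.56 to 12.42 in IML, from 11.23 to 11.46 in LMN and from 11.30 to 11.75 in MMN. Whether these markers have a part in the Tubb3, Dcx, Mapre1 or Ppp2ca results was not tested.

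The genes most like each member, read by its brightest probe set, were taken by the highest Pearson correlation over the 15 samples of 5 animals. Only genes at or above the median brightness were considered. For Tubb3, read by 160462_f_at, which was not called, they were Pex5 (0.91), Napa (0.90) and Tomm34 (0.90). For Tubb2a 94835_f_at they were Atg7 (0.93), Ptprn (0.92) and Dctn1 (0.91). Tubb4a was most like Cck (0.92), Grin2d (0.91) and Hoxa11os (0.90), and Tuba4a most like Ttc1 (0.95), Pou6f1 (0.91) and Jagn1 (0.89). Mapt reached 0.78 with Mcm3ap and Pgm1 and 0.77 with Ube2v1. The dim probe sets of Map1b and Map2 reached 0.86 with Vamp1 and 0.76 with Epb41l2.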

How the data were processed

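Motoneurons were captured by laser from 5 animals and 3 pools, and RNA of each sample was hybridised to 2 arrays. The deposited values are linear intensities: per the labels, signals went through R-pack and inverse logs were given. The method of R-pack is not given in the sources used here. Tests covered 12422 probe sets, leaving aside 66 controls. The platform's annotation gave 1 gene symbol for 10833 of them, several for 396 and none for 1193, and 10817 symbols were taken through the gene identifier on GRCm38.p6. Array medians ran from 131.62 to 145.70, and the number of animals limits the precision.

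Intensities were taken to log2 with no offset, the arrays of a sample were averaged, and limma 3.58.1 in R 4.3.3 was fitted over all 15 samples with pool and animal as terms, followed by eBayes, two-sided, with Benjamini-Hochberg adjustment. The labels state that each animal gave all 3 pools. Deviations from the pool means correlated from 0.288 to 0.747 in the 15 same-animal pairs of samples. Between samples of different animals and pools they correlated from -0.614 to 0.387, so the ranges overlap. Steps were tested on simulated data.

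The members, gene lists and settings were chosen with earlier results of these data known. Every member probe set is named, as are, from each list of related proteins, the called genes and up to 4 with the smallest p. From each marker list the rule allows the called genes and up to 3 of the brightest, of which a selection is printed, and for each member the 3 most correlated genes. Tubb5, the dimmer probe set of Tuba1a, and the markers named only to describe their list, were added. The alternatives changed the block, scaling, arrays, filters, variance model, threshold and animals.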

Additional observations from a re-analysis of the deposited data

Results flagged for a closer look

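Of 36 groups of 5 samples (12 probe sets in 3 pools), 2 held a sample far from the others, where chance gives about 1 in 20 groups. Tubb3 161612_f_at was 11.78 in the IML sample of animal 4, and the nearest IML sample was at 10.49. Mapt 102742_g_at was 6.56 in the IML sample of animal 3, and the nearest was at 7.92.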

How the results depend on the processing

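No called value turned round under the 19 alternatives. Of 772 recomputed member values 757 kept their side of the threshold, 12 lost it and 3 gained it; 33 changed sign, none beyond 0.12 in size. Neither scaling moved the median difference over all probe sets by more than 0.0221 in any contrast. The number of member genes called stayed at 0, except that it was 1 against both somatic pools without animal 2 (0 to 1 over the fits without 1 animal), and against LMN 1 without animal 2 (0 to 1), 1 with the mean of a gene's probe sets and 1 with only both pools of the contrast. Counting every probe set on its own was added after seeing the data. That count of 1 became 0, against both somatic pools and against LMN, without the animal as a block, with the first technical set alone, at a threshold of 0.01 and without suffixed probe sets, which leave none for Tubb3 and Tubb2a; a floor of 32 gave 0 against both somatic pools. It ran from 0 to 2 over the fits without 1 animal in both contrasts. Without the block, unpaired, Tubb3 161612_f_at had an adjusted p of 0.429 against both somatic pools and 0.301 against LMN, and with the floor 0.0807 against both somatic pools. Over its alternatives the adjusted p ran from 0.00873 to 0.429 and from 0.00573 to 0.301, and it was called in 9 of 15 and 10 of 16. Filtering dim probe sets dropped Map1b and Map2. Without detection calls, signal over background is unknown.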

Other observations

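The IML sample of animal 4 ranked high for many tubulin probe sets, a pattern noticed after its values were seen. Over 17 tubulin probe sets it was the highest of the 15 samples for 3 and among the 3 highest for 9. All 9 were among the 11 probe sets with a suffix (_f, _i or _r), and the 6 without a suffix ranked from 4 to 14. Tubb2a 94835_f_at was 12.52 in it, beside a median of 11.83 over the other 14 samples, Tubb3 160462_f_at was 12.13 beside 11.50, and Tubb6 was 8.04 beside 7.60. Tubb4a, at 10.34 beside 10.53, Tuba8, at 8.74 beside 9.00, and Tuba4a 92635_at, at 9.63 beside 9.95, were low in the same sample.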
